A study of Arabidopsis thaliana with 6 samples.

Results

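The B-box (BBX) family of Arabidopsis thaliana was examined in mature pollen, as the 32 genes numbered BBX1 to BBX32, of 27827 features on the array. Members were taken by locus code, and a measurement was present for each of the 32. Pollen came from plants of ecotype Columbia 0 with 2 genotypes, heterozygous NOT1 mutants (NOT1+/-) and wild type, with 3 biological replicates each. All plants were grown without a further treatment and were moved from 12 h to 16 h of light per day to induce flowering. About 300000 grains per sample were purified by fluorescence-activated cell sorting, and 100 ng of total RNA was hybridised to an Affymetrix whole-transcript array, so RNA was measured as a 1-colour intensity per gene. Because the mutant plants were heterozygous, their pollen is a mixture of grains that carry the mutant allele and grains that do not. The labels do not state the kind of mutation. A change in mean signal therefore cannot be divided between fewer grains with the RNA and less RNA per grain.

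BBX proteins are zinc finger transcription factors and cofactors with 1 or 2 B-box domains, which bind zinc and mediate contacts with other proteins. They are sorted into 5 structural groups. Groups I and II carry a pair of B-boxes and a CCT domain (named after CONSTANS, CONSTANS-LIKE and TOC1), which contributes to DNA binding. Group III has a single B-box and a CCT domain, group IV a pair of B-boxes without a CCT domain, and group V a single B-box. In leaves and seedlings the family is best known for photoperiodic flowering, where CONSTANS (CO, BBX1) activates the florigen gene FT, and for light-dependent seedling development together with the bZIP factor HY5 and the ubiquitin ligase COP1. NOT1 is the scaffold of CCR4-NOT, the complex that shortens poly(A) tails of messenger RNAs.

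NOT1 itself (AT1G02080) had intensities of 28.6, 31.8 and 32.6 in NOT1+/- pollen, against 47.6, 51.0 and 46.9 in wild-type pollen, without overlap. Its log2 fold change was -0.65 (SE 0.15), with a limma adjusted p of 0.029 that did not pass 0.05 without any 1 of the 6 arrays (0.053 to 0.118) or with arrays centred on their medians (0.055). The label of pollen was borne out by 12 of 12 markers of the vegetative cell, each of which stood at or above the 96.1st percentile of all features on every array. Of all features, 8.84% were called higher and 3.22% lower, which is the background for the marker counts. Of 13 photosynthesis genes, marking green tissue, 0 were called higher and 2 lower (LHCB1.1 and LHCA1). Their summed intensity was 88.3 to 112 in NOT1+/- and 123 to 144 in wild-type pollen, and none of the 13 had a mean above 17.7 in either genotype. Of 14 floral organ and tapetum genes, 0 were called higher and 1 lower (SHP1), with sums of 189 to 202 in NOT1+/- and 172 to 228 in wild-type pollen. Only 1 of the 14, the tapetum gene A9, had a mean above the 75th percentile of all features. Its means were 37.4 in NOT1+/- and 36.7 in wild-type pollen, and it was not called. Of 7 sperm cell markers 5 were called higher, with sums of 536, 578 and 783 in NOT1+/- replicates 1, 2 and 3, against 342 to 344 in wild-type pollen, and of the 12 vegetative cell markers 6 were called higher, with sums of 16642 to 17144 against 14335 to 14791. The part of these shifts in the results on the BBX genes was not tested.

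In NOT1+/- pollen 8 of the 32 BBX genes were higher than in wild type and 2 were lower, while 22 were not called (limma, Benjamini-Hochberg adjusted p under 0.05 over all features). The largest rises were those of BBX30, BBX10, BBX31, BBX29 and BBX9, between 26.8-fold and 4.96-fold, an order that depends on the low wild-type signal of BBX30 (with 16 intensity units added before log2, BBX10 and BBX31 came before it); BBX32, BBX4 and BBX13 rose by 2.14-fold, 1.86-fold and 1.75-fold. BBX5 and BBX7 fell to 62.7% and 65.0% of the wild-type level. The share of members called was 31.3%, against 12.1% of all features, with 25.0% called higher against 8.84% and 6.25% called lower against 3.22%. A rise of at least 4-fold was called in 5 members (15.6%, against 2.68% of all features) and of at least 10-fold in 3 (against 0.841%). The family did not move as a whole: the median log2 fold change of its 32 members was -0.07, and that of all features was -0.10.

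**Figure D1:**
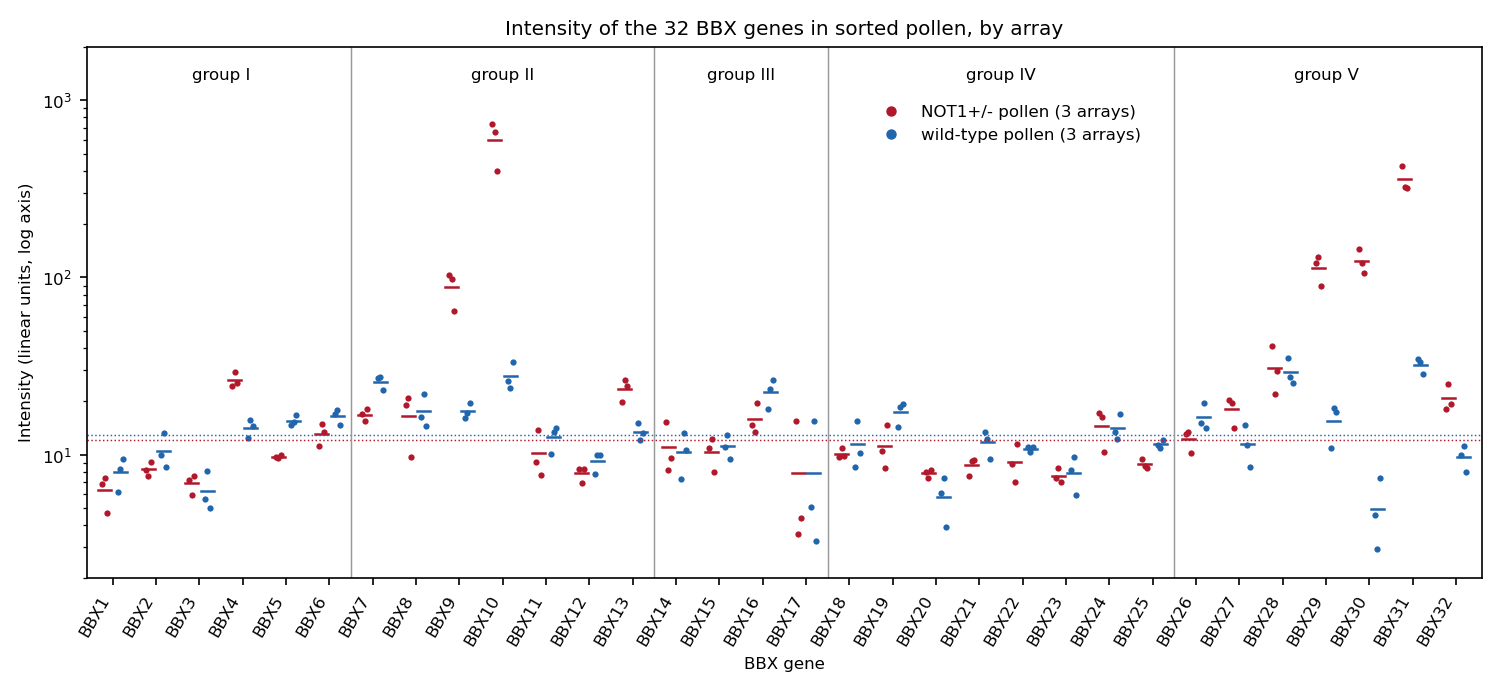
Intensity (linear units on a log axis) of the 32 BBX genes on each of the 3 NOT1+/- and 3 wild-type arrays, ordered by number and structural group. Points are arrays, bars are arithmetic means, and dotted lines mark the mean of the array medians in each genotype (12.2 in NOT1+/- and 12.8 in wild type); BBX9, BBX10, BBX29, BBX30 and BBX31 stand far above their wild-type values, while most others lie near the dotted lines in both genotypes.

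No member of the family was among the brightest features of wild-type pollen. Intensities of different genes depend on their probes, so they were set only against the spread of all features on the same array and not converted to transcript amounts. Of the 32 members, 16 had a mean above the average array median in NOT1+/- pollen and 15 in wild-type pollen, and 14 lay below it in both. A median splits all features evenly, so 15 and 16 of 32 are about the share of any set of genes. Above the 75th percentile of all features (22.9 to 23.9 on NOT1+/- arrays and 21.1 to 22.3 on wild-type arrays) were 8 members in NOT1+/- pollen and 5 in wild type. The 5 in wild type were BBX7, BBX10, BBX16, BBX28 and BBX31, and their wild-type means did not exceed 32.1. The deposited values carry no detection calls, so no member could be called absent.

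The calls fell unevenly over the structural groups, although groups of 4 to 8 genes are too small for this to be more than a count. Group V, with a single B-box, had 4 of 7 members higher and 0 lower, and a median log2 fold change of 1.10. Group II had 3 of 7 higher and 1 lower (median -0.15), and group I had 1 of 6 higher and 1 lower (median -0.33). None of the 4 members of group III (median -0.07) or the 8 of group IV (median -0.21) was called by limma in either direction. Over all features 12.1% were called, so 0 calls in 4 or 8 genes are near that share. In groups III and IV there were 1 and 2 at an unadjusted p under 0.05, which were not set against the share of all features. A difference between groups was not tested.

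In group V, the B-box microproteins BBX30 and BBX31 were among the strongest rises. These short proteins, also called miP1b and miP1a, bind CO and the corepressor TOPLESS (TPL), and an excess of them delays flowering. BBX30 (feature AT4G15248_at) had intensities of 145, 121 and 106 in NOT1+/- pollen, against 4.54, 2.93 and 7.34 in wild-type pollen. Its wild-type values stood at the 0.641st to 16.7th percentile of their arrays and its NOT1+/- values at the 92.03rd to 93.6th. BBX30 rose by 4.74 on the log2 scale (SE 0.32, 95% interval 3.99 to 5.49, limma adjusted p = 5.79e-05). With wild-type values this low the size is uncertain, and with 16 units added it was 6.68-fold in place of 26.8-fold.

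BBX31 (feature AT3G21890_at) had 428, 324 and 321 in NOT1+/- pollen, against 34.6, 33.3 and 28.3 in wild-type pollen, with no overlap. Unlike BBX30 it was already above the 75th percentile in wild type, at the 81.7th to 84.2nd percentile, and it reached the 96.5th to 97.3rd in NOT1+/-. Its log2 fold change was 3.47 (SE 0.18, 95% interval 3.04 to 3.90, limma adjusted p = 1.90e-05).

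BBX29 and BBX28 are close relatives that interact with HY5 in seedlings, and they behaved differently here. BBX29 (feature AT5G54470_at) had 120.2, 130.4 and 89.5 in NOT1+/- pollen, against 10.9, 18.3 and 17.5 in wild-type pollen. All 3 NOT1+/- values were thus above all wild-type values, at a log2 fold change of 2.88 (SE 0.25, 95% interval 2.30 to 3.47, limma adjusted p = 2.14e-04). BBX28 (AT4G27310) had 41.2, 22.1 and 29.5 in NOT1+/- pollen, against 35.02, 27.4 and 25.4 in wild-type pollen, so the genotypes overlapped. Its log2 fold change was 0.05, with a 95% interval of -0.55 to 0.64 that lies wholly below that of BBX29; the difference between the genes was not tested.

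BBX32, which delays flowering and dampens HY5-dependent light responses when in excess, also rose, and its signal was low in wild-type pollen. BBX32 (AT3G21150) had 18.0, 25.0 and 19.3 in NOT1+/- pollen, against 9.88, 11.2 and 8.01 in wild-type pollen (log2 fold change 1.10, SE 0.20, limma adjusted p = 0.01). Every NOT1+/- value lay above every wild-type value. The other members of the group were not called: BBX26 had means of 12.3 ± 1.76 in NOT1+/- and 16.2 ± 2.89 in wild type, and BBX27 had 18.0 ± 3.37 and 11.5 ± 3.09 in the same order (SD, n = 3 arrays each). BBX27 had a log2 fold change of 0.66 with a 95% interval of 0.09 to 1.24, but its adjusted p was 0.138 in limma.

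In group II the rises were those of BBX10, BBX9 and BBX13. BBX10 (COL12, feature AT3G21880_at), a COP1-interacting repressor of flowering, had 738, 661 and 401 in NOT1+/- pollen, against 26.1, 23.7 and 33.3 in wild-type pollen. It stood at the 97.2nd to 98.4th percentile of NOT1+/- arrays, against the 76.8th to 84.1st in wild type. Its log2 fold change was 4.40 (SE 0.26, 95% interval 3.79 to 5.02, limma adjusted p = 3.33e-05).

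BBX9 (COL11, feature AT4G15250_at) had 103, 98.1 and 65.0 in NOT1+/- pollen, against 16.1, 17.2 and 19.5 in wild-type pollen. The NOT1+/- arrays were again all higher, with a log2 fold change of 2.31 (SE 0.22, 95% interval 1.81 to 2.81, limma adjusted p = 3.02e-04). BBX13 (COL15, AT1G28050) changed far less, with 19.9, 26.4 and 24.4 in NOT1+/- pollen, against 15.0, 12.0 and 13.3 in wild-type pollen. This was a log2 fold change of 0.81 (SE 0.18, limma adjusted p = 0.025), and the call was lost without NOT1+/- replicate 2 or 3 or wild-type replicate 2 or 3 (adjusted p 0.058 to 0.098).

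BBX7 (COL9, AT3G07650), which delays flowering by lowering CO and FT expression in leaves, moved the other way. It had 16.9, 15.4 and 18.0 in NOT1+/- pollen, against 27.0, 27.3 and 23.2 in wild-type pollen. All NOT1+/- values lay below the wild-type values, at a log2 fold change of -0.62 (SE 0.16, limma adjusted p = 0.044). The call was lost without any 1 of the 6 arrays (adjusted p 0.052 to 0.146) and with arrays centred on their medians (0.068). BBX8 (COL10) had means of 16.5 ± 5.96 in NOT1+/- and 17.6 ± 3.99 in wild-type pollen and was not called, as were BBX11 and BBX12.

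Among the 8 members called higher, NOT1+/- replicate 3 had the lowest of the 3 NOT1+/- values in 5 (BBX9, BBX10, BBX29, BBX30 and BBX31) and replicate 1 in the other 3. The same replicate had the highest NOT1+/- value of all 7 sperm cell markers. Without it, 7 members were still called higher. The 5 rises of at least 4-fold were called in all 15 alternative settings, including each left-out array. Their sizes varied with the processing: with 16 intensity units added before log2, the fold of BBX30 was 6.68 in place of 26.8, that of BBX10 13.7 in place of 21.2, that of BBX31 7.72 in place of 11.1, that of BBX29 4.08 in place of 7.38 and that of BBX9 3.08 in place of 4.96.

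The 4 genes BBX9, BBX10, BBX30 and BBX31 form 2 neighbouring pairs on the chromosomes. BBX30 and BBX9 lie next to each other on chromosome 4, and BBX10 and BBX31 on chromosome 3, with 0 genes between them in the gene table (TAIR10.1) and no overlap of the gene models. Each pair thus joins a group II gene with a microprotein gene of group V, and both genes of each pair rose. Over the array, 17.6% of 2419 features called higher had a directly neighbouring gene that was also called higher.

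The genes on both sides of the pairs were then counted. Around BBX30 and BBX9, 0 of the 6 nearest measured genes, 3 on each side, were called. With 12.1% of all features called, 0 of 6 is near that share. Around BBX10 and BBX31, 4 of 6 were called higher (against 8.84% of all features). The gene next to BBX10, the cyclin gene CYCP2;1, had 23.3, 24.3 and 22.04 in NOT1+/- pollen, against 24.9, 27.4 and 29.5 in wild-type pollen, and was not called, while PEX22, the gene beyond it, had 95.7, 94.3 and 59.6 in NOT1+/- pollen, against 7.58, 9.38 and 5.34 in wild-type pollen. On the other side AT3G21900, AT3G21910 and AT3G21930 had log2 fold changes of 3.09, 5.20 and 5.62.

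**Figure D2:**
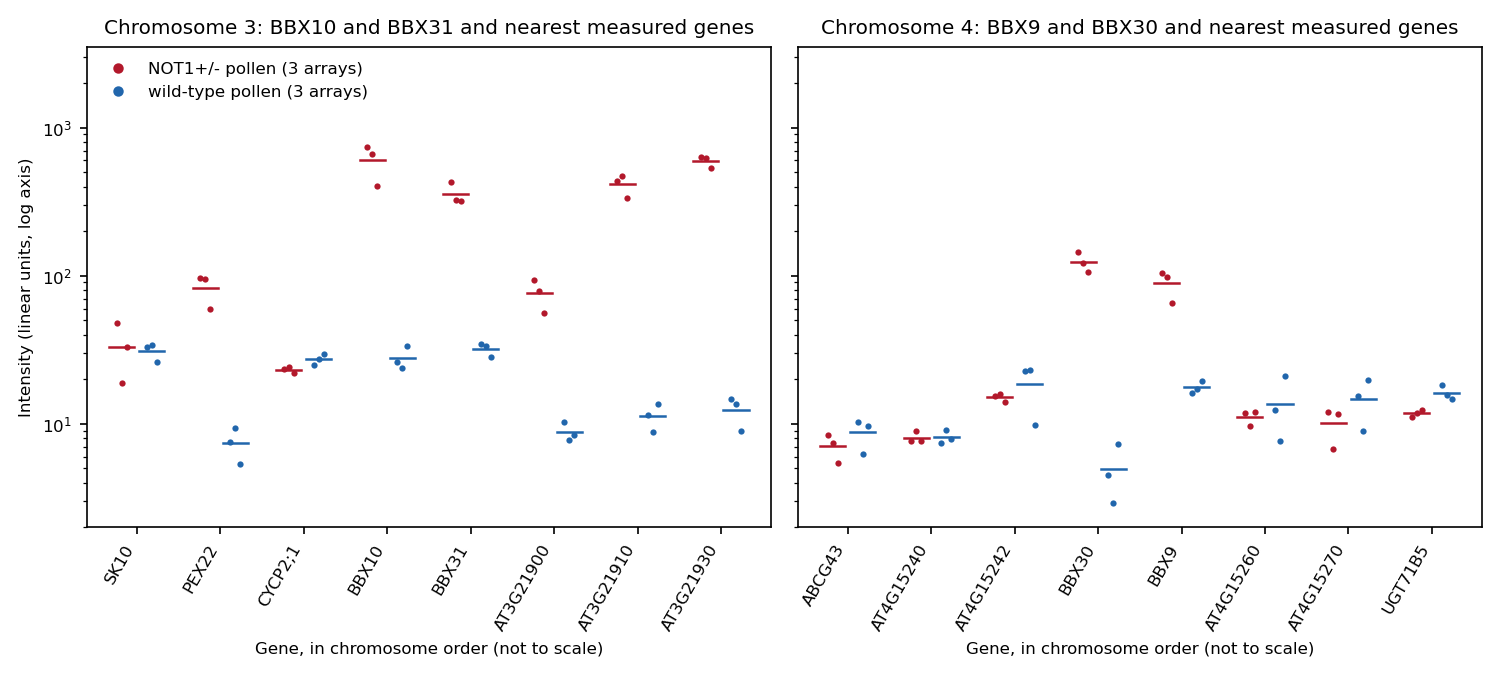
Intensity (linear units on a log axis) of the neighbouring pairs BBX10 and BBX31 (chromosome 3, left) and BBX30 and BBX9 (chromosome 4, right) with the 3 nearest measured genes on each side, in chromosome order and not to scale. Points are the 3 NOT1+/- and 3 wild-type arrays and bars their means. Of the flanking genes, 4 of 6 on chromosome 3 and 0 of 6 on chromosome 4 were called higher in NOT1+/-, against 8.84% of all features.

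The stretch of higher genes on chromosome 3 went on beyond BBX31. Of the 20 nearest measured genes on that side, a window chosen after the values were seen, 14 were called higher and 0 lower (against 8.84% and 3.22% of all features), and 11 rose at least 4-fold. Their wild-type means were 4.43 to 18.4 and their NOT1+/- means 19.2 to 598. On the other side of the pair only PEX22 was called among 20 genes. Around BBX30 and BBX9 the counts over 20 genes were 2 higher before the pair and 0 after it, with 0 and 1 lower. None of the 20 genes beyond BBX31 had the same 6 values as another feature. Probe sequences were not used here, and cross-hybridisation between similar neighbouring genes was not tested.

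Of 13 measured direct neighbours of called members that are not BBX genes themselves, 3 were called higher (23.1%, against 8.84% of all features), 1 lower (7.69%, against 3.22%) and 9 neither. Next to BBX31, AT3G21900 had 94.03, 78.2 and 56.2 in NOT1+/- pollen, against 10.3, 7.75 and 8.38 in wild-type pollen. Next to BBX5, which itself fell, AT5G24940 had 1326, 1413 and 1171 in NOT1+/- pollen, against 603, 684 and 742 in wild-type pollen. Both rose without overlap of the genotypes. Next to BBX32, MNS2 had 271, 293 and 267 in NOT1+/- pollen, against 68.05, 73.6 and 80.97 in wild-type pollen. The lower one was AT5G54460, next to BBX29, with 4.20, 3.99 and 4.03 in NOT1+/- pollen, against 39.5, 78.1 and 24.5 in wild-type pollen. BBX29 and AT5G54460 thus moved in opposite directions, with log2 fold changes of 2.88 and -3.38. Besides CYCP2;1, the other 8 neighbours had log2 fold changes of -0.58 to 0.51 and were not called (smallest adjusted p 0.070 in limma).

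In group I, which holds CO and its nearest relatives, CO itself gave no more than a dim signal. CO (BBX1, AT5G15840) had 6.78, 7.40 and 4.70 in NOT1+/- pollen, against 6.14, 8.32 and 9.50 in wild-type pollen, all below the array medians. The genotypes overlapped, and the log2 fold change of -0.35 had a 95% interval of -0.91 to 0.22 (limma adjusted p = 0.42). COL1 (BBX2), which lies close to CO on chromosome 5, and COL2 (BBX3) also overlapped, with log2 fold changes of -0.33 and 0.17.

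BBX4 and BBX5 of the same group moved apart. BBX4 (COL3, AT2G24790), a COP1-interacting factor in seedling light responses, had 24.3, 29.4 and 25.3 in NOT1+/- pollen, against 12.4, 15.6 and 14.5 in wild-type pollen (log2 fold change 0.90, SE 0.17, limma adjusted p = 0.012). The values did not overlap; the call was lost without NOT1+/- replicate 2 (adjusted p = 0.057). BBX5 (COL4, AT5G24930), described as a repressor of flowering, had 9.71, 9.57 and 9.91 in NOT1+/- pollen, against 14.7, 15.3 and 16.6 in wild-type pollen. Its NOT1+/- values lay closely together and below every wild-type value (log2 fold change -0.67, SE 0.15, limma adjusted p = 0.023). This call was lost without any 1 of the 6 arrays (adjusted p 0.0504 to 0.085). BBX6 (COL5) was not called, at -0.34.

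**Figure D3:**
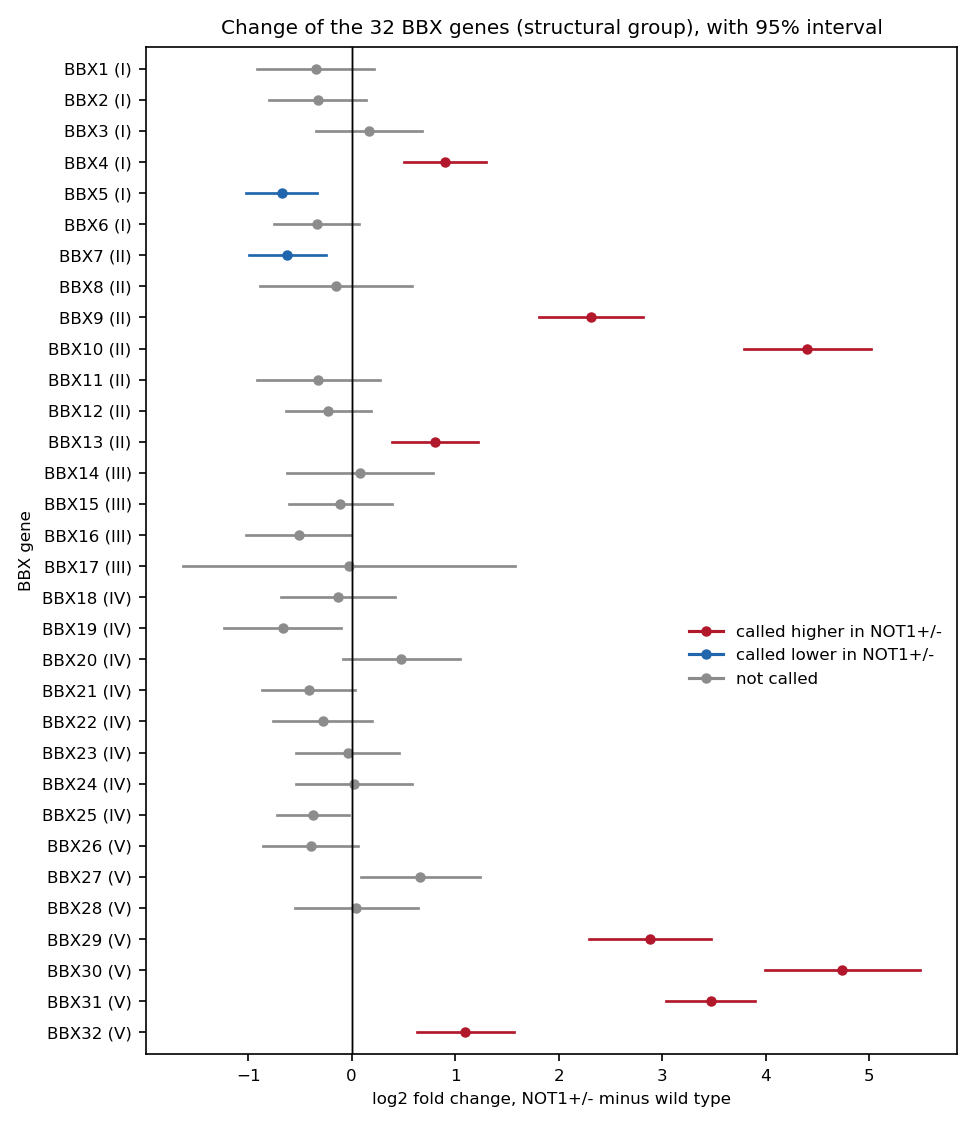
Log2 fold change (NOT1+/- minus wild type, limma, horizontal axis) of the 32 BBX genes with 95% intervals, listed by number with the structural group in brackets. The 8 genes called higher and the 2 called lower are coloured; the 5 large rises lie in groups II and V, and the 22 uncalled genes lie between -0.67 and 0.66.

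Group III showed no call (0 of 4, against 12.1% of all features). BBX16 (COL7, AT1G73870), the member of this group above the 75th percentile in wild type, had 14.6, 13.4 and 19.7 in NOT1+/- pollen, against 18.2, 23.3 and 26.4 in wild-type pollen. NOT1+/- replicate 3 overlapped the wild-type range, and the log2 fold change of -0.51 did not pass (SE 0.22, limma adjusted p = 0.192). BBX14 and BBX15 had means of 10.4 to 11.1 in both genotypes. BBX17 was too variable to compare, since 1 array of each genotype stood at 15.5 and 15.4 and the other 4 between 3.25 and 5.08, and its 95% interval ran from -1.63 to 1.58 on the log2 scale.

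Group IV, the family branch with the best-known partners of HY5 and COP1 in seedlings, had no called member (0 of 8, against 12.1% of all features). In this group BBX20 to BBX23 promote light-dependent seedling development, and BBX24 (STO) and BBX25 (STH) oppose it. Means were 7.58 to 14.6 in NOT1+/- and 5.80 to 17.4 in wild-type pollen, and 6 of the 8 members lay below the array medians in both genotypes. BBX19 had the largest shift, with means of 11.2 ± 3.22 in NOT1+/- and 17.4 ± 2.71 in wild type and a log2 fold change of -0.67 (95% interval -1.23 to -0.10, limma adjusted p = 0.13). BBX25 was at 8.82 ± 0.558 in NOT1+/- and 11.4 ± 0.577 in wild-type pollen, without overlap (log2 fold change -0.37, limma adjusted p = 0.17). BBX20 and BBX21 only just failed to overlap, with log2 fold changes of 0.48 and -0.42. For BBX20 the lowest NOT1+/- value was 7.41 and the highest wild-type value 7.39. For BBX21 the highest NOT1+/- value was 9.37 and the lowest wild-type value 9.38. Their 95% intervals, -0.08 to 1.05 and -0.87 to 0.04, included no change. BBX18, BBX22, BBX23 and BBX24 overlapped, at -0.28 to 0.02.

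Over the whole family, 14 members had no overlap between genotypes (43.8%, against 31.8% of all features), the 10 called ones among them. Of the 22 uncalled members, 16 had a log2 fold change below 0, with a range of -0.67 to 0.66. The median over all features was itself below 0, at -0.10, and the share of all features below 0 was not counted. Of the 22, 17 had a 95% interval wholly between -1 and 1. A 2-fold change in either direction therefore lay outside the interval of those 17 but not of the other 5. At an unadjusted p under 0.05 there were 4 among the 22, a count that was not set against the share of all features.

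Genes that act with the BBX proteins in light and flowering were mostly uncalled, but 5 of 37 rose (13.5%, against 8.84% of all features) and 0 fell. Of the 37, 20 had a mean above the average array median in NOT1+/- and 17 in wild-type pollen. COP1, the ubiquitin ligase that targets CO, HY5 and several BBX proteins, had 48.7, 47.4 and 32.6 in NOT1+/- pollen, against 9.90, 11.0 and 12.4 in wild-type pollen (log2 fold change 1.94, SE 0.21, limma adjusted p = 5.75e-04). All NOT1+/- values lay above the wild-type values. SPA2, a partner of COP1 in the ligase, had 62.9, 62.6 and 49.5 in NOT1+/- pollen, against 22.6, 29.0 and 26.5 in wild-type pollen (1.16, SE 0.18).

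The other rises were DET1, CRY2 and CDF5. DET1, a repressor of light-dependent development, had 40.4, 40.2 and 31.2 in NOT1+/- pollen, against 9.64, 11.1 and 10.1 in wild-type pollen (1.85, SE 0.17). CRY2, the blue light receptor that stabilises CO in leaves, had 38.4, 42.4 and 27.8 in NOT1+/- pollen, against 5.17, 4.23 and 5.31 in wild-type pollen (2.87, SE 0.21). None of these overlapped between genotypes. CDF5, a repressor of CO transcription, had 366, 319 and 290.4 in NOT1+/- pollen, against 87.8, 81.8 and 87.8 in wild-type pollen (1.92, SE 0.16). With 16 units added before log2, the fold of CRY2 was 2.48 in place of 7.30, that of COP1 2.16 in place of 3.83 and that of DET1 2.02 in place of 3.60.

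HY5, FT and SOC1 were not called and lay below the array medians on every array. HY5 had 10.1, 7.74 and 5.36 in NOT1+/- pollen, against 7.39, 10.5 and 10.7 in wild-type pollen, and its interval on the log2 scale was -0.95 to 0.30. The FT values were 4.54 to 5.43 in NOT1+/- and 5.20 to 7.74 in wild-type pollen. TPL, the corepressor bound by BBX30 and BBX31, had 28.1, 25.9 and 22.7 in NOT1+/- pollen, against 35.6, 37.1 and 36.0 in wild-type pollen; its values did not overlap, but its log2 fold change of -0.51 had an adjusted p of 0.081 in limma. TPL was among the 3 to 5 listed genes called lower with quantile normalization (4), with arrays centred on the 75th percentile (3), with trend and robust eBayes (4), with 16 units added (4), and when only features above the median level (5) or the 75th percentile (4) were tested. Its adjusted p in those settings was 0.0068 to 0.048, and 0.187 at most over all 15 alternatives. TPL was not alone in this. CDF1, PIF1 and ZTL had log2 fold changes of -0.90, -0.69 and -0.57, without overlap and uncalled (limma adjusted p 0.072 to 0.078). They were called lower in 8, 5 and 6 of the 15 alternatives. CDF2 went the other way, at 0.57 (limma adjusted p = 0.079), and was called higher in 4. Lack of overlap did not set these genes apart, since 13 of the 37 listed genes had none (35.1%, against 31.8% of all features).

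**Figure D4:**
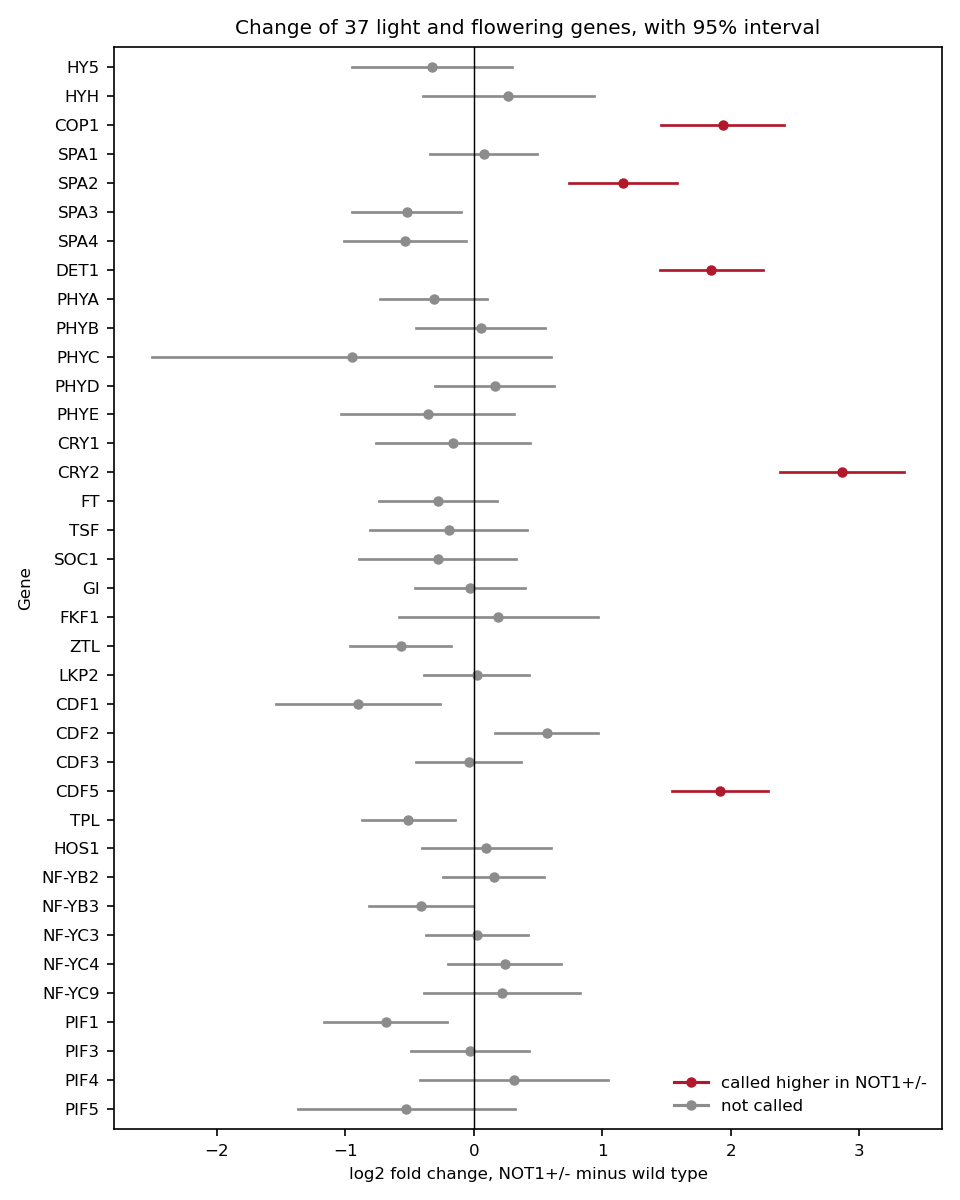
Log2 fold change (NOT1+/- minus wild type, limma, horizontal axis) with 95% intervals for 37 genes of light signalling and flowering that act with BBX proteins. COP1, SPA2, DET1, CRY2 and CDF5 were called higher, 0 were called lower and 32 were not called.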

How the data were processed

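The authors deposited 1 intensity value per gene and array on a linear scale, for 6 arrays. Per the submitters' processing notes the software was Affymetrix Expression Console. Its version and how it corrected background, summarised probes and scaled arrays were left unstated: not given in the sources used here. Array medians were 12.0 to 12.3 in NOT1+/- and 12.3 to 13.1 in wild type, and the smallest value was 1 on every array. The upper ends differed by genotype, with a 95th percentile of 193 to 202 on NOT1+/- arrays and 133 to 141 on wild-type arrays. The deposited values were turned to log2, unfiltered and without an offset. A linear model with genotype as its only term was fitted in limma 3.58.1 (lmFit, eBayes; R 4.3.3), with Benjamini-Hochberg adjustment over all 27827 features. Features with an adjusted p below 0.05 were called. Each fold compares geometric means, while each mean ± SD is arithmetic over 3 arrays. The number of arrays limits the precision. Percentiles are ranks among all features of an array. The method was tested on simulated data, in which most changes of 1 on the log2 scale were not called and most changes of 2 were. Far fewer features were changed there than were called here, so this does not give the sensitivity of the real fit.

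The members, gene lists and tests were chosen with earlier results of these data known. Values per array were given for called members, members above the 75th percentile of all features in either genotype, CO, called light and flowering genes, NOT1, and the called direct neighbours of called members with that of BBX10; the other 8 neighbours, which the rule also named, are given as a range. Other genes (PEX22, AT3G21910, AT3G21930, TPL, CDF1, CDF2, PIF1, ZTL, HY5, FT, SOC1, LHCB1.1, LHCA1, SHP1 and A9) were chosen after their values were seen. All 32 members and 27241 features matched the gene table (TAIR10.1), used for names and gene order; it does not name AT2G47890 as BBX11 or AT1G02080 as NOT1, which is background knowledge, as are the structural groups. No scan dates or strips were used, so no batch was tested.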

Additional observations from a re-analysis of the deposited data

How the results depend on the processing

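The 8 higher calls among BBX genes numbered 7 or 8 in the other settings run, except 5 when only features above the 75th percentile of level were tested, which keeps 6 members (5 called in all), and 6 to 8 without 1 array. In all, 6 to 8 members were called without 1 array. The 2 lower calls became 0 with the replicate number as a block, 1 with median centring, 0 above the 75th percentile of level and 0 without any 1 of the 6 arrays. A shared replicate number is not stated to pair the samples, so the numbers were not taken as pairs. Same-numbered arrays correlated in their deviations at r = 0.114, 0.133 and -0.013, which cannot settle whether they were paired. With the replicate block 7 members were called higher, and BBX5, BBX7 and BBX13 lost their calls. In that setting 5 light and flowering genes were called, 555 features were called lower, and NOT1 stayed at -0.65 (limma adjusted p = 0.07). The median log2 fold change of the members was 0.35 above the median level and 3.18 above the 75th percentile, where fewer members were tested. NOT1 had -0.57 with median centring (adjusted p = 0.055) and -0.68 to -0.59 without 1 array. BBX28 turned to -0.050 with 75th percentile centring and -0.14 with quantile normalization, and ranged between -0.19 and 0.26 without 1 array, and was not called in any of them. The causes were not tested.

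Calls in the light and flowering list numbered 10 with trend and robust eBayes (4 lower), 8 with 75th percentile centring (3 lower), 9 with quantile normalization (4 lower), 11 above the median level (5 lower), 10 with 16 units added (4 lower), 3 higher and 4 lower above the 75th percentile, and 1 lower with array weights. Without 1 array, 5 to 6 were called and 0 to 1 lower, the 1 without NOT1+/- replicate 3. Over all features, 3357 were called, 896 of them lower; lower calls were 1458 with trend and robust eBayes, 571 with median centring, 1460 with 75th percentile centring (against 2211 higher), 1991 with quantile normalization (against 2201 higher; 2461 higher as reported), 1515 and 1363 above the 2 level limits and 1490 with 16 units added. Without 1 array, 2080 to 2959 were called and 258 to 711 lower.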
